A study of Mus musculus with 46 samples.

Results

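The genes described here are 10 genes of cell surface, cytoskeletal, matrix and secretory-pathway proteins: Cd93, Bst1, Mzb1, Myh10, Fbln1, Pdgfrb, Atp8a2, Micall2, Tenm4 and Thsd4. In that order, the table gives them the gene identifiers 17064, 12182, 69816, 77579, 14114, 18596, 50769, 231830, 23966 and 207596. They are 10 of the 19521 genes in the deposited count table and were picked by symbol, from a list drawn up with genotype differences in these libraries already known. Their differences between genotypes are therefore given as descriptions, without a test. The study compared RNA of sorted T-lineage cells from wild-type C57BL/6 mice with that of C57BL/6 mice whose genotype the labels give as hCD2-LMO2 knock-in, called transgenic below. By that name LMO2 is placed under human CD2 control elements, which act in T cells. LMO2 links DNA-binding proteins to one another in early blood cells and is normally lost as T cells mature. There were 40 RNA libraries, 16 wild-type and 24 transgenic. The thymic groups were cells with neither CD4 nor CD8 (total DN), their early DN1 and later DN3 subsets, cells with both (DP), and those with only CD4 (CD4SP) or only CD8 (CD8SP). Each group had 3 libraries, except wild-type DN1 with 1, and splenic CD4 and CD8 T cells, 3 libraries each, came from transgenic mice only. Ages are not given, and nothing in the labels says whether replicates were separate mice or pools, so p-values measure only the spread between these samples.

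These proteins have little to do with one another in ordinary tissue. CD93 is a lectin-like receptor of endothelial cells and blood progenitors, PDGFRB the receptor tyrosine kinase of pericytes and fibroblasts for platelet-derived growth factor, and BST1 (CD157) a lipid-anchored surface enzyme of NAD metabolism. TENM4 is a teneurin, a large adhesion protein best known from neurons, and ATP8A2 a flippase that moves phospholipids across membranes, also mainly neuronal. MYH10 is the heavy chain of non-muscle myosin IIB, and MICALL2 links the small GTPase Rab13 to the actin cytoskeleton at cell junctions. FBLN1 (fibulin) and THSD4 are secreted and belong to the extracellular matrix and its microfibrils. MZB1 is a chaperone of the endoplasmic reticulum in B and plasma cells, so it is neither a surface nor a cytoskeletal protein.

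Libraries held between 17211426 and 28842773 reads over all genes, and levels below are CPM, read counts relative to the library total, after scaling between libraries. Lmo2 itself was at 0.122 to 4.42 CPM in wild-type cells past DN1 and at 16.5 to 87.1 CPM in the transgenic libraries, with 1 exception: the library labelled transgenic DP replicate 3 held 0.397 CPM, inside the wild-type DP range of 0.122 to 0.479. In DN1 the wild-type library, at 30.7 CPM, was close to the transgenic ones at 35.1 to 44.2 CPM.

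Several transgenic libraries also went against the markers of their sort. Transgenic CD4SP replicate 1 held 191 CPM of Cd4 and 349 CPM of the DN3 marker Il2ra, against 1386 to 1869 and 28.4 to 47.6 CPM in wild-type CD4SP, and replicate 3 held 208 CPM of Il2ra. Transgenic CD4SP replicate 2 held 3070 CPM of Cd8a and 6438 CPM of Rag1, beside 2957 to 3785 and 7644 to 8925 CPM in wild-type DP cells and 43.5 to 146 and 48.7 to 292 CPM in wild-type CD4SP. Replicate 3 of CD8SP held Cd4 in both genotypes, at 1412 and 843 CPM. In the spleen, CD8 replicate 1 and CD4 replicate 3 stood apart by markers of B cells and macrophages, given with the splenic results. All DN1 libraries held B-cell and myeloid transcripts, so their label as T-cell precursors covers a mixed fraction. The 9 B-cell and plasma-cell markers summed to 905 to 1216 CPM in transgenic DN1 against 11.1 to 15.7 CPM in transgenic DN3. Markers listed for plasmacytoid dendritic cells summed to 872 to 1189 CPM in transgenic DN1, 875 to 1005 in wild-type DN3 and 1731 to 1948 in wild-type DP. With such sums in DN3 and DP, the list cannot show whether DN1 held these cells. In such bulk samples, fewer cells of a type and less RNA per cell cannot be told apart.

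The word ectopic fits only some of these genes, as the wild-type levels show. Wild-type DN3 cells already held Bst1 at 74.2 ± 4.04 CPM (SD, n = 3), Pdgfrb at 48.7 ± 8.47, Cd93 at 40.4 ± 5.05, Myh10 at 12.1 ± 3.61, Mzb1 at 7.17 to 13.7 CPM over the 3 libraries and Micall2 at 5.24 ± 0.532 CPM. The other 4 were lower there: Fbln1, with 110 counts over the 3 libraries, stood at 1.36 ± 0.109 CPM, Atp8a2 at 0.420 ± 0.227, Tenm4 at 0.0488 ± 0.0551 and Thsd4 at 0.0126 ± 0.0218 CPM. Only Tenm4 and Thsd4 were at 1.10 CPM or lower in every wild-type library outside DN1. The single wild-type DN1 library held Mzb1 at 31.9 CPM, Cd93 at 14.4, Atp8a2 at 12.1, Pdgfrb at 6.45 and Fbln1 at 6.02 CPM.

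**Figure D1:**
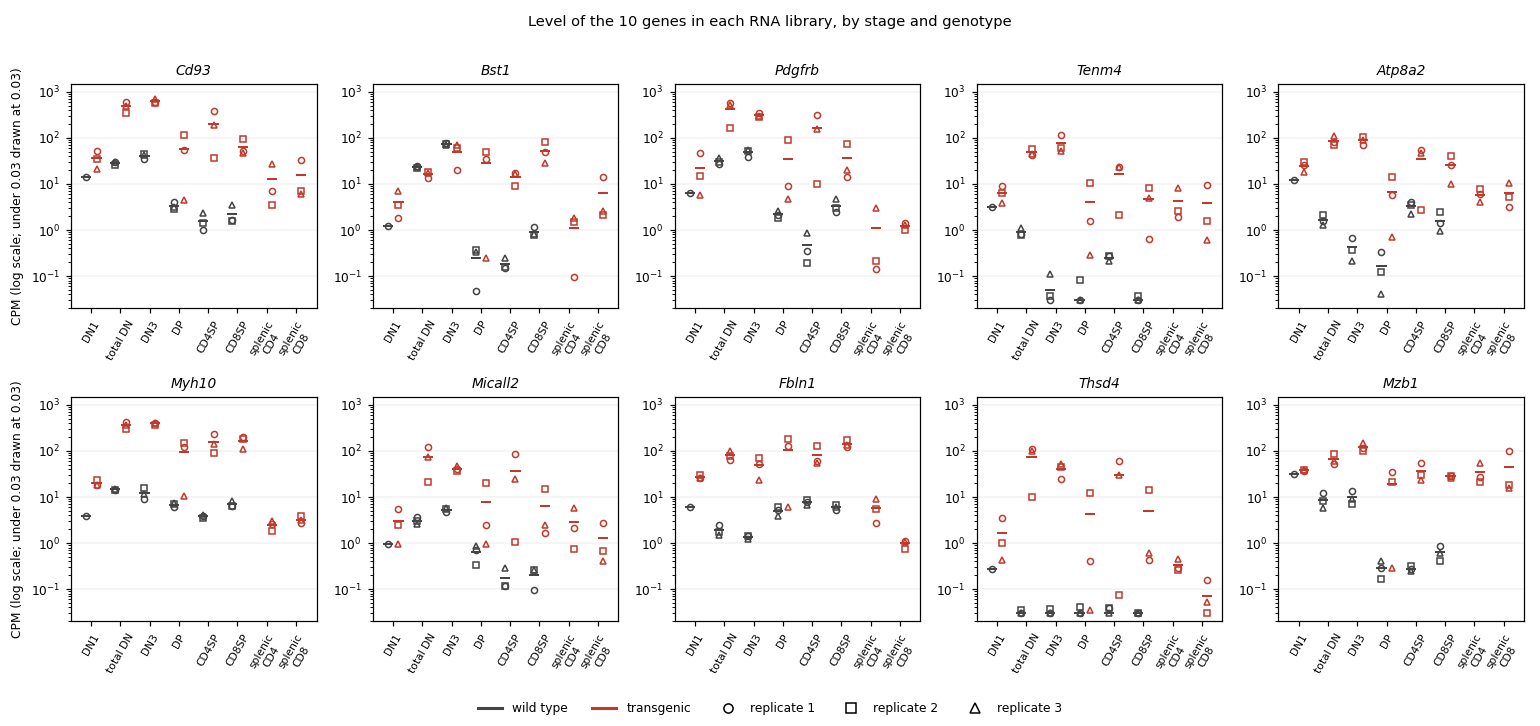
CPM of each of the 10 genes (log axis, values under 0.03 drawn at 0.03) in the 40 RNA libraries, by stage, with open symbols for libraries and bars for group means, wild type in grey and transgenic in red. Most transgenic groups lie above wild type past DN1; Bst1 lies below it in DN3 and total DN, and the triangle of transgenic DP replicate 3 lies near the wild-type values.

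Seen per transcript length, with the authors' FPKM values, Mzb1 was the most abundant of the 10 in transgenic DN3, at a mean of 158.5 FPKM, ahead of Cd93 at 98.6 and Pdgfrb at 59.7 FPKM. Their ranges over the 3 libraries did not overlap, at 128 to 198 FPKM for Mzb1, 90.7 to 111 for Cd93 and 55.1 to 65.5 for Pdgfrb. Myh10, at 49.1 to 54.8 FPKM, came next. In wild-type DN3 the order was another one, with Bst1 at 36.7 FPKM first and Mzb1 at 13.8 FPKM second. In transgenic DP and CD8SP the highest was Fbln1, at means of 38.2 and 54.9 FPKM. In the spleen it was Mzb1, at 40.5 FPKM in CD4 and 59.8 FPKM in CD8 cells.

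RefSeq promoter windows (GRCm38.p6) were at hand for 5 of the 10 genes. The 250 bases before the outermost start are shown for 4 of them: Tenm4 and Thsd4, the genes nearest to 0 in wild type, Myh10, which varied least between transgenic DN3 libraries, and Fbln1, whose stage pattern differs. E-boxes (CANNTG, letters bound by the helix-loop-helix proteins found in LMO2 complexes) are in capitals. The windows are chr7:96170994-96171243 (+) for Tenm4, chr9:60511036-60511285 (-) for Thsd4, chr11:68691665-68691914 (+) for Myh10 and chr15:85205699-85205948 (+) for Fbln1, each printed 5′ to 3′ on the strand of the gene.
Tenm4: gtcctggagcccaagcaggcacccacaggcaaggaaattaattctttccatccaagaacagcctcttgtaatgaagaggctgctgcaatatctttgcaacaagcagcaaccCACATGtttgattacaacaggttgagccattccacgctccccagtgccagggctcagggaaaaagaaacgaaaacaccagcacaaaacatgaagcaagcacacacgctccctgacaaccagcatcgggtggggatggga
Thsd4: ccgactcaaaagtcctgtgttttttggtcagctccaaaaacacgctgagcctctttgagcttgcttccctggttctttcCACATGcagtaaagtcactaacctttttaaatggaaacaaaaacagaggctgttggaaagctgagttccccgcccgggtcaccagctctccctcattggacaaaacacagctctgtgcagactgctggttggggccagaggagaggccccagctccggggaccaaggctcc
Myh10: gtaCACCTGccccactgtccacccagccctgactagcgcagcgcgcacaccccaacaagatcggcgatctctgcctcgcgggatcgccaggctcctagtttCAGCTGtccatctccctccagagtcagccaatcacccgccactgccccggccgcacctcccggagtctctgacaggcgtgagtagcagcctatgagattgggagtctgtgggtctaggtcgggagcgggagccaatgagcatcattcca
Fbln1: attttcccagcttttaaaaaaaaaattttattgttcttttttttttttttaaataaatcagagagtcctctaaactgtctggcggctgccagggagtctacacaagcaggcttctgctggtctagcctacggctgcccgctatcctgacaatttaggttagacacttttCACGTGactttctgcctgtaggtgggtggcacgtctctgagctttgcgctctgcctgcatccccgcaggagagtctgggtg

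The Myh10 window printed here holds 2 E-boxes, the other 3 printed windows 1 each, and the window of Micall2, the fifth gene, none. Since 61.5% of all 18979 such windows hold at least 1 E-box, a match is common. GATAA, which 18.4% of windows hold, TGTGGT (a RUNX motif, 11.9%), GGAAGT (an ETS motif, 20.8%) and an E-box followed by GATA after 7 to 11 bases (1.77%) were searched on both strands. None of these 4 was found in any of the 8 windows of the 5 genes, which says only that these letters are not there. Overlaps between motifs were allowed.

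The contrast of genotypes, from which the genes were drawn, asks how far each stands from wild type at each stage. In DN3, 9 of the 10 lay above wild type without overlap, as did 27.1% of the 12037 genes tested, and 1 lay below, as did 30.7%. In total DN the counts were again 9 above (22.1% of genes) and 1 below (17.1%). All 10 lay above in CD8SP (12.0% of genes), 9 in CD4SP (24.0%) and 6 in DP (12.1%). Because the genotype contrast chose the genes, nothing is read from these counts. Log2 fold changes below are transgenic over wild type with their standard error (SE) from the fit.

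Cd93 was above wild type at each stage past DN1. Its transgenic DN3 libraries held 615, 584 and 701 CPM and the wild-type ones 34.8, 44.5 and 42.0 CPM, a log2 fold change of 3.99 ± 0.14. Total DN was alike, with 606, 356 and 487 CPM against 26.3 to 30.4. From DP on the wild-type libraries lay within 0.994 to 4.12 CPM. There the transgenic ones held 54.7 and 114 CPM in DP replicates 1 and 2, 374.5, 36.2 and 194 CPM in CD4SP, and 51.7, 94.3 and 45.9 CPM in CD8SP. In no thymic stage did the groups overlap. Of 8 endothelial markers, 4 could be fitted in DN3 and 2 rose: Pecam1, also made by lymphoid cells, at 196 to 291 CPM against 97.2 to 125 in wild type, and Plvap, at 0.951 to 2.57 against 0.415 to 0.627 CPM. Emcn was at 0 counts and Cdh5 at 0 to 0.423 CPM in transgenic DN3. Over the whole list the sum was 205 to 301 CPM in transgenic and 107 to 133 CPM in wild-type DN3, nearly all of it Pecam1; its part in the result was not tested.

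Pdgfrb stood at 344, 286 and 299.8 CPM in transgenic DN3, against 39.3, 51.0 and 55.7 CPM in wild type (2.69 ± 0.15). In total DN it reached 567.5, 160.1 and 527 CPM, so replicate 2 was well below the other two, against 27.5 to 37.5 in wild type. Fibroblast markers (8 genes) summed to 0.141 to 0.759 CPM in transgenic and 0.543 to 0.886 CPM in wild-type DN3, and pericyte markers (7 genes) to 1.16 to 2.75 and 0.453 to 1.92 CPM. Col3a1, Dcn and Lum were at 0 counts in transgenic DN3, and of the 2 pericyte markers that could be fitted 1, Kcnj8, rose. The part of such cells in the level of Pdgfrb was not tested. Pdgfra, the sister receptor, was at 0.0468 CPM in transgenic DN3, and of the ligand and receptor genes beside Pdgfrb only 1 of 6 could be fitted in DN3, and it was not called.

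Tenm4 was counted 0, 1 and 3 times in the wild-type DN3 libraries and 3261, 1690 and 1458 times in the transgenic ones, or 115, 59.2 and 52.7 CPM. Wild-type total DN held 0.837, 0.765 and 1.09 CPM and transgenic total DN 42.2, 57.1 and 45.8 CPM (5.70 ± 0.24). In later stages its level was lower and scattered, from 0.288 CPM in DP replicate 3 to 23.5 CPM in CD4SP replicate 1. Tenm1, the teneurin that wild-type thymocytes do express, was at 46.4 ± 11.9 CPM in wild-type and 32.01 ± 10.96 CPM in transgenic DN3, which was no call (log2 fold change -0.52 ± 0.29, adjusted p = 0.175, edgeR). Tenm2 and Tenm3 stayed under 0.1 CPM in both.

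For Atp8a2 the transgenic DN3 libraries held 71.1, 103.9 and 91.8 CPM and the wild-type ones 0.664, 0.377 and 0.217 CPM (7.74 ± 0.30). Wild-type CD4SP had more of it, at 4.05, 3.54 and 2.18 CPM, so that transgenic CD4SP replicate 2, at 2.67 CPM, fell inside the wild-type range while replicates 1 and 3 held 55.4 and 47.1 CPM. Its paralog Atp8a1 was already abundant at 212.5 CPM in wild-type DN3 and rose to 344 CPM (0.71 ± 0.17, adjusted p = 0.0082).

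Bst1 followed another course. In wild-type mice it was at 1.24 CPM in DN1, 21.8 to 24.7 in total DN and 70.04 to 78.11 CPM in DN3, then at 0.0479 to 0.367 CPM in DP. Transgenic DN3 libraries held less, 20.4, 59.5 and 68.7 CPM (-0.56 ± 0.40), as did transgenic total DN with 13.4, 18.04 and 16.9 CPM (-0.59 ± 0.17). In the later stages the order was the opposite one. Transgenic CD8SP held 50.4, 81.2 and 28.1 CPM against 0.776 to 1.16 in wild type (5.86 ± 0.46), and CD4SP 16.9, 9.20 and 16.1 CPM against 0.153 to 0.252 (6.21 ± 0.47). In DP, transgenic replicates 1 and 2 held 34.9 and 49.8 CPM and replicate 3 held 0.252 CPM. Its wild-type peak was in DN3, whereas its highest transgenic library was one of CD8SP. Cd38, its paralog and chromosomal neighbour, was at 0.160 CPM in wild-type and 0.224 CPM in transgenic DN3. By edgeR it was higher in splenic CD4 than in transgenic CD4SP cells (3.62 ± 0.92, adjusted p = 0.0342). The same held for splenic CD8 against CD8SP (5.65 ± 0.93, adjusted p = 0.00584). The part of other cells in these splenic Cd38 levels was not tested.

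Myh10 varied least of the 10 among transgenic DN3 libraries. Transgenic DN3 libraries held 414, 372 and 409 CPM and wild-type ones 8.86, 16.0 and 11.4 CPM (5.06 ± 0.22), the highest library being 1.11 times the lowest among the transgenic 3. In CD4SP the transgenic values were 238, 92.5 and 139.6 CPM against 3.54 to 4.11, and in CD8SP 197, 177.5 and 112 CPM against 6.25 to 8.11. Even DP replicate 3, at 10.5 CPM, lay above the wild-type DP range of 5.99 to 7.26 CPM. Its paralog Myh9, the heavy chain of non-muscle myosin IIA and the main one of lymphocytes, rose in DN3 from 488 ± 146 to 1220 ± 151 CPM (1.34 ± 0.21, adjusted p = 0.00122). Myh11 and Myh14 were under 0.1 CPM in both.

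Micall2 held 40.4, 35.8 and 46.5 CPM in transgenic DN3 against 4.65, 5.39 and 5.68 CPM (2.98 ± 0.15). In transgenic total DN it ranged from 21.0 to 124.5 CPM and in CD4SP from 1.04 to 84.0 CPM. No transgenic library of a thymic stage past DN1 overlapped with wild type of the same stage. Its paralog Micall1 rose in DN3 from 13.5 to 34.3 CPM (1.37 ± 0.16, adjusted p = 0.000309).

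Fbln1 was higher in transgenic CD8SP than in transgenic DN3 without overlap, and its CD4SP libraries, at 59.9, 129 and 53.5 CPM, overlapped with DN3. It held 52.7, 69.8 and 23.3 CPM in transgenic DN3 but 122, 172 and 136 CPM in transgenic CD8SP, and 127 and 182 CPM in DP replicates 1 and 2. Wild-type libraries held 1.23 to 1.43 CPM in DN3 and 5.29 to 6.57 CPM in CD8SP, again without overlap. The log2 fold changes were 5.18 ± 0.43 in DN3 and 4.58 ± 0.20 in CD8SP. Fbln2, a related fibulin, rose in DN3 from 20.1 to 42.9 CPM (1.12 ± 0.14, adjusted p = 0.000329), and Fbln5 and Fbln7 were at or near 0.

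Thsd4 was counted once in the 3 wild-type DN3 libraries together and 701, 1268 and 1426 times in the transgenic ones, at 24.7, 44.4 and 51.6 CPM. No wild-type library past DN1 held more than 1 count of it, and wild-type CD8SP held 0 in all 3. In total DN, DP, CD4SP and CD8SP its transgenic libraries differed more than those of any other gene of the set, whereas in DN3 Bst1, Fbln1 and Tenm4 differed more. Its values were 112, 10.1 and 102 CPM in total DN, 60.3, 0.0742 and 30.4 CPM in CD4SP, and 0.416, 12.3 and 0.0361 CPM in DP. Thsd1, another thrombospondin-domain gene, rose in DN3 from 7.76 to 24.6 CPM (1.68 ± 0.24, adjusted p = 0.000716).

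Mzb1 stood at 115, 97.5 and 149 CPM in transgenic DN3 and at 13.7, 7.17 and 9.19 CPM in wild type (3.61 ± 0.27). In CD8SP it was even between libraries, at 29.3, 28.7 and 25.7 CPM against 0.406 to 0.866 (5.49 ± 0.30). The B-cell and plasma-cell markers were lower in transgenic than in wild-type DN3, at sums of 11.1 to 15.7 and 26.6 to 37.0 CPM. In CD4SP their sum was higher in transgenic libraries, at 29.8 to 74.6 CPM against 3.19 to 6.88, and in CD8SP at 28.1 to 42.0 against 12.5 to 25.2 CPM. Sdc1, itself a marker of this list, had a mean of 0.977 CPM in wild-type and 14.1 CPM in transgenic CD8SP. The part of B and plasma cells in Mzb1 at these stages was not tested.

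**Figure D2:**
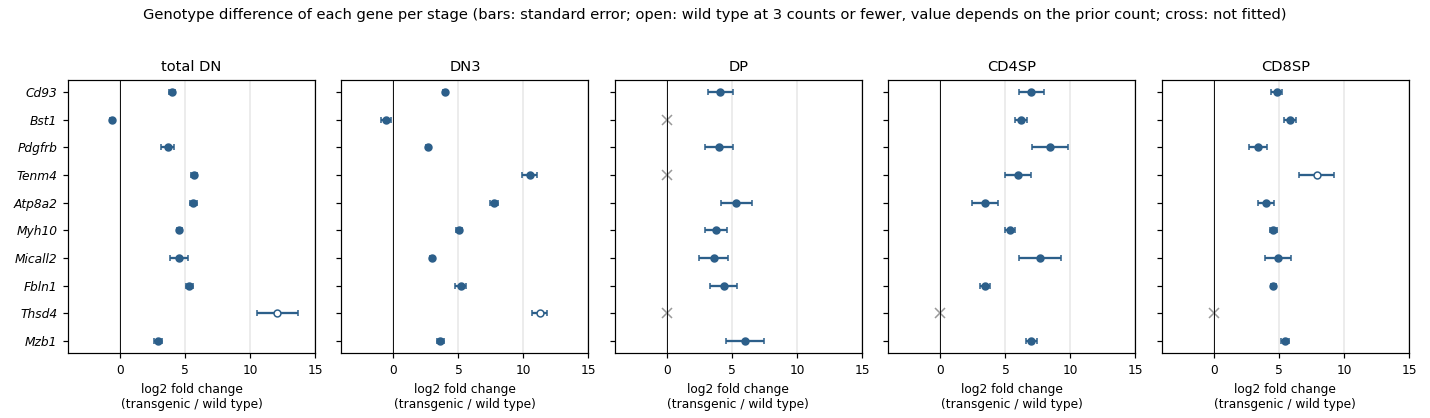
Log2 fold change of transgenic over wild type for each gene in 5 thymic stages, with standard errors from 3 against 3 libraries. Open points mark wild-type groups with 3 counts or fewer, whose values depend on the prior count, and crosses mark genes that could not be fitted; Bst1 is the only gene below 0, in total DN and DN3.

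Transgenic DP replicate 3 shows the set in a library without Lmo2 above wild type. In that library Bst1, Fbln1, Thsd4 and Mzb1 were inside the wild-type DP range. Fbln1, for example, stood at 5.95 CPM beside 3.94 to 6.03 in wild type and 127 and 182 CPM in the other 2 transgenic libraries. Myh10, Cd93, Pdgfrb, Tenm4, Atp8a2 and Micall2 were above that range, with Cd93 at 4.58 CPM beside 2.81 to 4.12, Atp8a2 at 0.721 beside 0.0406 to 0.335 and Tenm4 at 0.288 CPM beside 0 to 0.0815. Tenm4, Atp8a2 and Micall2 rest on 8, 20 and 27 counts in this 1 library. How many of all genes lay above the wild-type DP range in it was not counted, so nothing is read from how many of the set did. Each gene was at least 1.9 times higher in the lower of replicates 1 and 2 than in replicate 3, from 1.92 times for Pdgfrb to 138 times for Bst1. With this library in, 0 of 11649 genes were called between genotypes in DP by edgeR (0.0%), although 2450 had an unadjusted p under 0.05; by DESeq2, 605 were called. Without it, edgeR called 906 of 11919.

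Libraries of 1 stage differed from each other in ways that many of the genes shared. In transgenic CD4SP, Thsd4, Micall2, Pdgfrb, Atp8a2, Tenm4 and Cd93 were all highest in replicate 1 and lowest in replicate 2, by 812.5, 80.9, 31.7, 20.7, 11.3 and 10.4 times. Fbln1 had its highest value, 129 CPM, in that same replicate 2, and Bst1, Mzb1 and Myh10 varied 1.83 to 2.58 times. Replicates 1 and 3, where the 6 were high, held Il2ra at 349 and 208 CPM and Kit at 126 and 109.9 CPM, and replicate 2 held 20.4 and 8.09 CPM. In DP all 10 genes were lowest in replicate 3 and all but Mzb1 highest in replicate 2, and in CD8SP all but Mzb1 and Myh10 were highest in replicate 2. That replicate held 12.3, 19.8 and 92.0 CPM of Thsd4, Micall2 and Pdgfrb in DP beside 0.416, 2.42 and 8.84 CPM in replicate 1, and 14.02, 15.2 and 74.7 CPM in CD8SP beside 0.418, 1.67 and 14.1 CPM. Kit was again highest there, at 37.1 CPM in DP and 53.9 CPM in CD8SP, as was Il2ra at 57.3 and 58.6 CPM. Lmo2 did not follow this order: in CD4SP it was highest in replicate 2, at 74.8 CPM, and lowest in replicate 1, at 23.4 CPM. The columns of transgenic CD4SP replicates 1 and 3, DP replicate 2 and CD8SP replicate 2 have names ending in N, as do those of total DN replicates 1 and 3. No other transgenic column of these stages does, and the labels do not give the meaning of N. Neither its part in these levels nor that of cells that carry Kit or Il2ra was tested.

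**Figure D3:**
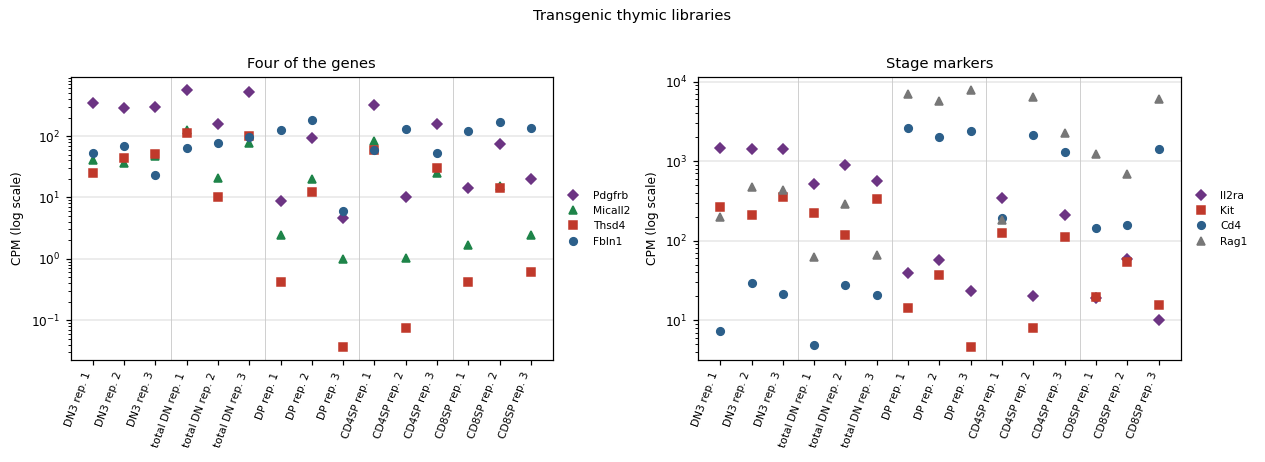
CPM (log axis) in the 15 transgenic thymic libraries of 4 of the genes, left, and of 4 stage markers, right. Thsd4, Micall2 and Pdgfrb are low in CD4SP replicate 2 and in DP and CD8SP replicates 1 and 3, where Kit is low too, while Fbln1 is at 122 CPM or more in DP replicates 1 and 2, CD4SP replicate 2 and all CD8SP libraries.

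Over all 40 libraries the closest pairs within the set were Cd93 with Micall2 and with Pdgfrb, and Micall2 with Thsd4, each with a Pearson r of 0.93 on the log2(CPM + 1) scale. Bst1 with Atp8a2, at 0.37, was the least alike, and these values mix genotype, stage and sort. The genes of the whole table most like each member were Pheta2 (r = 0.95) and Amot (0.95) for Cd93, Slc22a3 (0.97) and the mast-cell protease gene Cpa3 (0.96) for Pdgfrb, and Slc7a8 (0.93) and Thbd (0.92) for Tenm4. Likewise they were Gpr82 (0.90) and Rab11fip1 (0.89) for Atp8a2, Efr3b (0.86) for Bst1, and Serpine2 (0.95) and Yap1 (0.94) for Myh10. For Micall2 they were Bpifc (0.96) and Tfr2 (0.96), for Fbln1 Wscd1 (0.91) and Sobp (0.90), for Thsd4 Ubqlnl (0.98) and Olfm5 (0.98), and for Mzb1 Plscr1 (0.92) and Fam43a (0.89).

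Whether the genes beside them on the chromosome differed too was looked up after these values were known. Of the 20 protein-coding neighbours in RefSeq order (GRCm38.p6), 18 were in the table and 12 could be fitted in DN3. There 6 rose and 1 fell, as did 2822 and 2675 of all 12037 genes, with 45.7% called in either direction. Thbd, the thrombomodulin gene, is both the neighbour of Cd93 and a member of the same lectin-domain family. It rose from 1.60 ± 0.470 to 41.3 ± 8.86 CPM in DN3 (4.71 ± 0.26, adjusted p = 6.22e-06) and from 1.49 to 41.1 CPM in total DN (4.72 ± 0.60, adjusted p = 0.00789). Nxt1, on the other side of Cd93, was not called in DN3 (-0.34 ± 0.15, adjusted p = 0.103) but rose in CD4SP (1.16 ± 0.26, adjusted p = 0.0223). In total DN 3 of 14 neighbours rose (Thbd, Shisa2, Atxn10), beside 12.4% of all genes called in either direction. In CD4SP 3 of 11 rose (Nxt1, Atxn10, Prob1), beside 25.9%. In DP 0 of 11 rose, beside 0.0%, and in CD8SP 0 of 12, beside 4.45%. None fell at these other stages. Shisa2, beside Atp8a2, rose from 0.0490 to 1.46 CPM in DN3 (4.78 ± 0.46, adjusted p = 0.000101), and the other 4 that rose in DN3, Nupl1, Ndel1, Ints1 and Atxn10, did so by log2 fold changes of 0.31 to 0.74. Fbxl5, beside Bst1, fell from 114 to 68.7 CPM (-0.71 ± 0.10, adjusted p = 0.000771), and Nars2, beside Tenm4, was not called (-0.10 ± 0.14, adjusted p = 0.563).

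The partners and relatives of the 10 proteins were taken from 9 gene lists that leave the 10 genes out. Every adjusted p given comes from edgeR (quasi-likelihood), adjusted by Benjamini-Hochberg over all genes tested. In DN3, 33 of the 65 list genes that could be fitted were called, 24 higher and 9 lower, close to the 45.7% of all 12037 genes. Their median log2 fold change was 0.14, beside -0.03 over all genes. P2rx7, the ATP-gated channel listed with the nucleotide enzymes around BST1, rose from 1.996 ± 0.302 to 206 ± 47.2 CPM (6.71 ± 0.22, adjusted p = 7.65e-07). Adamtsl2, a microfibril protein related to THSD4, fell from 26.6 ± 4.78 to 0.249 ± 0.0396 CPM (-6.70 ± 0.25, adjusted p = 9.99e-07). Atp9a, a P4-ATPase like ATP8A2, rose from 2.11 ± 0.267 to 33.8 ± 7.58 CPM (4.02 ± 0.22, adjusted p = 6.22e-06).

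By list, 5 of 11 flippase genes rose in DN3 and none fell, among them Atp8a1, Atp9a and Atp10a. Of 10 MICAL and Rab genes 5 rose (Micall1, Mical1, Mical3, Actn1, Actn4) and Rab8a fell, and of 10 myosin II genes 3 rose (Myh9, Mprip, Ppp1r12a). Among 9 fibulin and microfibril genes 5 rose and 3 fell, with Efemp2 higher (3.27 ± 0.21) and Ltbp3 lower (-5.84 ± 0.53). Of 4 teneurin genes, the latrophilin genes Adgrl1 rose (0.84 ± 0.11) and Adgrl2 fell (-7.00 ± 0.71), and Flrt1 fell. Of 11 secretory genes around MZB1 only Sdc1 rose, while Jchain, Xbp1 and Creld2 fell. Thbd was the only 1 of 3 in the CD93 list, and none was called of the 1 fitted in the PDGF list.

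At the other stages fewer were called. In total DN 14 of 71 list genes passed, 10 higher and 4 lower, beside 12.4% of 12509 genes. Efemp2, a fibulin-family microfibril gene, rose from 1.25 to 26.1 CPM (4.34 ± 0.36, adjusted p = 0.000835), Atp9a from 3.75 to 19.5 CPM (adjusted p = 0.00422) and Cd248, a CD93 relative counted 3 times in the wild-type libraries together, to 0.400 to 3.37 CPM (adjusted p = 0.0227), while Adamtsl2 fell from 17.95 to 1.54 CPM (adjusted p = 0.0152). In CD4SP 20 of 64 passed, 11 higher and 9 lower, beside 25.9% of 12073 genes: Efemp2 (3.95 ± 0.45, adjusted p = 0.00593), the endocytic gene Ehd1 (1.28 ± 0.19, adjusted p = 0.0094) and Tenm1 (2.43 ± 0.42, adjusted p = 0.012) rose and Rock2 fell (-0.87 ± 0.17, adjusted p = 0.0152). The CD4SP count was 0 without wild-type replicate 1 and 1 without wild-type replicate 2, where 38 and 100 of all genes were called. Every transgenic CD4SP library went against its sort markers, as given above, and the part of this in the calls was not tested. Tenm1 was at 1.81 CPM in wild-type and 9.70 in transgenic CD4SP, beside 10.1 in wild-type DP and 46.4 CPM in wild-type DN3. In CD8SP 6 of 62 passed, 5 higher and 1 lower, beside 4.45% of 11697 genes. Without replicate 3 of both genotypes 4 did, beside 483 of 11863 genes. Sdc1, the plasma-cell syndecan, rose from 0.977 to 14.1 CPM (3.85 ± 0.46, adjusted p = 0.0122), Efemp2 from 2.23 to 10.7 CPM (2.26 ± 0.28, adjusted p = 0.0127) and Mical3 from 28.5 to 51.6 CPM (adjusted p = 0.0249), and Adgrl2 fell from 1.35 to 0.127 CPM (adjusted p = 0.0289). The CD8SP count too was 0 without wild-type replicate 1 or 2, and the total DN count fell to 2 without either of them. In DP 0 of 62 and in DN1 0 of 93 passed by edgeR. In DN1, 0.0% of 14845 genes passed and 157 had an unadjusted p under 0.05, DESeq2 calling 0.

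Comparisons among transgenic groups are another contrast, and here each gene was tested. They reuse the transgenic libraries whose high levels drew the genes into the set, so the counts are not independent of that choice, and nothing is read from how they compare with the share of all genes. From transgenic DN1 to DN3, 9 of the 10 rose, beside 28.0% of 12936 genes that rose and 61.2% called in either direction. The median log2 fold change was 3.56 over the 10 and -0.02 over all genes. Myh10 rose from 18.1, 24.0 and 18.2 CPM to the 372 to 414 CPM given above (4.19 ± 0.16, adjusted p = 5.04e-07). Cd93 rose from 52.9, 35.6 and 21.3 CPM (3.99 ± 0.32, adjusted p = 2.23e-05), and Mzb1, high already at 37.1, 38.9 and 38.7 CPM in DN1, rose least (1.54 ± 0.16, adjusted p = 7.7e-05). Thsd4 (4.44 ± 0.70), Pdgfrb (3.64 ± 0.72), Micall2 (3.64 ± 0.53), Bst1 (3.48 ± 0.64), Tenm4 (3.44 ± 0.40) and Atp8a2 (1.74 ± 0.21) rose with adjusted p-values of 0.000201 to 0.0048. All 9 calls held whichever of the 6 libraries was left out. Fbln1 was the exception, at 25.6, 29.6 and 25.4 CPM in DN1 and 52.7, 69.8 and 23.3 CPM in DN3 (0.73 ± 0.34, adjusted p = 0.0976). Without transgenic DN3 replicate 3 it too passed (1.07 ± 0.17, adjusted p = 0.0015).
Beside these, the list genes moved mostly the other way, 12 of 75 higher and 47 lower, with a median of -0.80. The markers of B cells, summing to 905 to 1216 CPM in DN1 and 11.1 to 15.7 in DN3, and those of macrophages and granulocytes, at 263 to 529 and 2.39 to 3.99 CPM, also differ between the 2 groups, and their part in the results was not tested.

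From transgenic DN3 to DP, 3 of the 10 fell, Tenm4 (-4.25 ± 1.13, adjusted p = 0.0291), Atp8a2 (-3.73 ± 0.90, adjusted p = 0.0207) and Cd93 (-3.46 ± 0.998, adjusted p = 0.0376), beside 17.8% of 11929 genes that fell and 36.9% called. Tenm4 passed the filter on low counts only through DN3, where it is high, and with no filter 0 of the 10 were called, beside 4135 of 16252 genes. Without DP replicate 3, 6 passed by edgeR, beside 5197 of 12122 genes. The same 3 fell, as did Myh10 (-1.57 ± 0.13, adjusted p = 0.000949) and Mzb1 (-2.08 ± 0.29, adjusted p = 0.00365), and Fbln1 rose (1.67 ± 0.43, adjusted p = 0.0239). Without DP replicate 2, 6 fell, beside 4446 of 12143 genes called in either direction. Without DP replicate 1 or any DN3 replicate 0 did, beside 2552 to 3350 genes called. Bst1 was not called with either set of libraries (-0.81 ± 1.27, adjusted p = 0.65, and -0.23 ± 0.50, adjusted p = 0.734).

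Splenic CD4 cells held less of 5 of the 9 genes fitted than transgenic CD4SP, beside 12.0% of 12578 genes that fell and 24.5% called. Lmo2 was at 40.5 to 85.2 CPM in the splenic CD4 libraries, and its part in the difference was not tested. Myh10 fell to 2.62, 1.82 and 3.02 CPM (-5.99 ± 0.48, adjusted p = 0.00355) and Fbln1 to 2.76, 5.56 and 9.22 CPM (-3.79 ± 0.57, adjusted p = 0.0109), and these 2 passed whichever library was left out. Pdgfrb (-7.21 ± 1.70, adjusted p = 0.0279), Bst1 (-3.64 ± 0.92, adjusted p = 0.0334) and Cd93 (-4.01 ± 1.11, adjusted p = 0.042) also fell, Pdgfrb and Bst1 having passed the filter only through CD4SP, where they are high. Those 3 kept the call in 3, 2 and 2 of the 6 fits that leave out 1 library. With transgenic CD4SP replicates 1 and 3 left out, the group was 1 library, the one with Cd8a and Rag1 near DP levels, assumed to vary like the splenic ones; only Myh10 and Fbln1 passed, and Tenm4, Atp8a2 and Micall2 pointed upward without a call (1.005, 1.116 and 1.463). Without replicate 2 instead, Tenm4 (adjusted p = 0.0445), Atp8a2 (0.00666) and Micall2 (0.0286) passed too, and Mzb1 did not (0.811). Mzb1 was at 26.9, 21.6 and 55.2 CPM in splenic CD4 cells, beside 54.1, 29.8 and 23.9 CPM in CD4SP (-0.07 ± 0.47, adjusted p = 0.93).

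Splenic CD8 cells gave a like count against transgenic CD8SP, 5 of 9 lower, beside 20.1% of 12185 genes that fell and 37.3% called. Fbln1 fell to 1.12, 0.745 and 1.08 CPM (-7.22 ± 0.28, adjusted p = 0.000496), Myh10 to 2.75, 3.85 and 3.13 CPM (-5.70 ± 0.32, adjusted p = 0.000496) and Pdgfrb to 1.40, 0.993 and 1.28 CPM (-4.93 ± 0.75, adjusted p = 0.0045). None of these values overlapped with CD8SP, and the 3 calls held in all 6 fits without 1 library. Bst1 (-3.11 ± 0.85, adjusted p = 0.0306) and Atp8a2 (-2.09 ± 0.64, adjusted p = 0.0438) kept theirs in 2 of 6. Mzb1, at 102, 18.7 and 15.8 CPM beside 25.7 to 29.3 in CD8SP, was not called (0.66 ± 0.72, adjusted p = 0.494). Without splenic CD8 replicate 1 its direction turned and it passed (-0.75 ± 0.17, adjusted p = 0.0172), as did Cd93 (-3.32 ± 0.40, adjusted p = 0.00232), and Atp8a2 did not (adjusted p = 0.079).

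**Figure D4:**
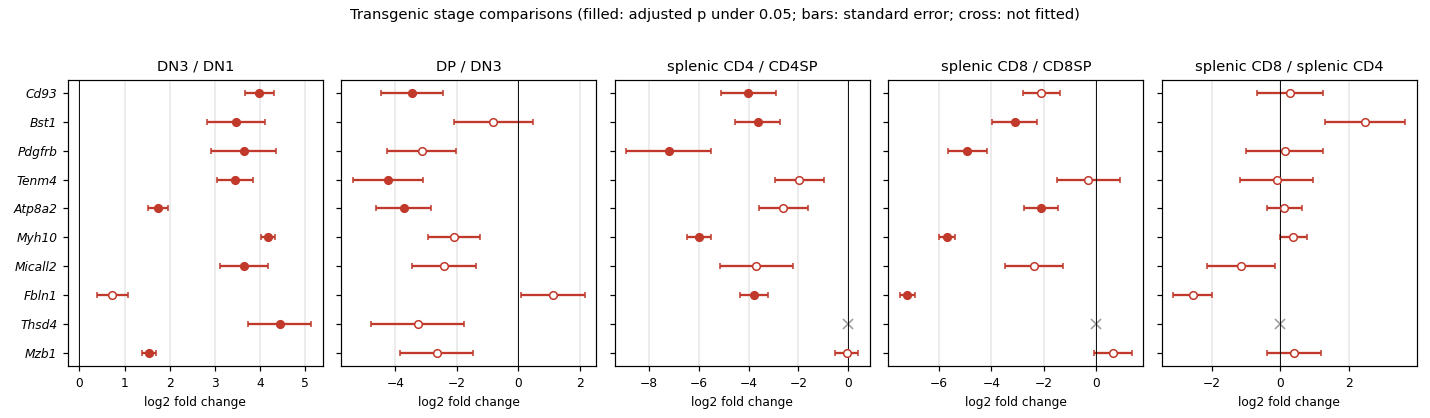
Log2 fold change of each gene, with its standard error, in the 5 comparisons between transgenic groups of 3 libraries; filled points passed an adjusted p of 0.05 and crosses could not be fitted. From DN1 to DN3, 9 of 10 points are filled and right of 0, and Myh10, Fbln1 and Pdgfrb are filled and left of 0 in both splenic comparisons.

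Between splenic CD8 and splenic CD4 cells 0 of the 9 genes were called by edgeR, beside 0.491% of 12429 genes, and 1957 genes had an unadjusted p under 0.05; DESeq2 called 1 of the 9. The libraries that stand apart set the levels here. Splenic CD8 replicate 1 held Mzb1 at 102 CPM, Cd93 at 33.2, Bst1 at 14.2 and Tenm4 at 9.41 CPM, beside 15.8 to 18.7, 6.15 to 7.20, 2.11 to 2.56 and 0.615 to 1.55 CPM in replicates 2 and 3. Splenic CD4 replicate 3 likewise had the most Mzb1, Cd93 and Tenm4 of its group, at 55.2, 27.5 and 8.03 CPM. In these 2 libraries the macrophage and granulocyte markers summed to 2877 and 2996 CPM, beside 90.3 to 538 in the other 4, and the B-cell and plasma-cell markers to 4748 and 2328 CPM, beside 696 to 1277. T-cell identity markers summed to 999 and 3542 CPM, beside 4764 to 5738. Splenic CD4 replicate 3 also held red-cell and platelet markers at a sum of 58670 CPM, beside 192 to 2340 in the other 5 libraries, endothelial markers at 609.7 beside 149.7 to 308.9 and fibroblast markers at 18.4 beside 1.08 to 3.02 CPM. The part of these other cells in the levels was not tested. Without the 2 libraries, edgeR called 3 of 9, beside 4494 of all 12355 genes, so nothing is read from that count. Pdgfrb was higher in CD8 (2.68 ± 0.62, adjusted p = 0.0102), and Fbln1 (-2.15 ± 0.46, adjusted p = 0.0071) and Mzb1 (-0.48 ± 0.15, adjusted p = 0.0396) were lower. The Pdgfrb call rests on 3 and 4 counts in CD4 replicates 1 and 2 beside 16 and 25 in CD8 replicates 2 and 3. In the full set Pdgfrb passed the filter on low counts only through CD8, and it was not called (0.13 ± 1.13, adjusted p = 0.966). Fbln1 was lower in CD8 than CD4 cells without overlap in the full set too, at 0.745 to 1.12 beside 2.76 to 9.22 CPM (-2.57 ± 0.56, adjusted p = 0.112).

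**Figure D5:**
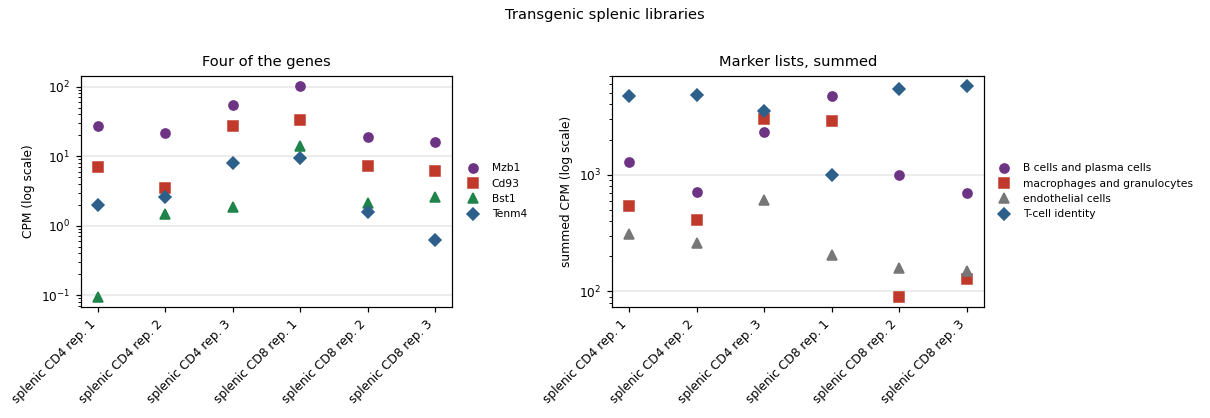
CPM (log axis) in the 6 transgenic splenic libraries of Mzb1, Cd93, Bst1 and Tenm4, left, and summed CPM of 4 marker lists, right. Mzb1, Cd93 and Tenm4 are highest in splenic CD4 replicate 3 and CD8 replicate 1, the libraries with the highest macrophage and B-cell sums and the lowest T-cell sums.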

How the data were processed

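RNA of sorted cells was sequenced in 40 libraries of 14 groups. The deposited table holds read counts and FPKM per gene (the authors' values), and HISAT and DESeq2 are named in the submitters' processing notes; the sources used here do not state their versions, nor which of the listed builds mm10 and mm9 served the counts. Depth ran from 17211426 to 28842773 reads per library. The 10 genes and all gene lists were chosen with earlier results of these data known. Counts were scaled by TMM and tested with edgeR 4.0.16 (quasi-likelihood, robust; R 4.3.3; minimum count 10, minimum total 15; prior count 0.125), using only the groups compared except for DN1, with Benjamini-Hochberg adjustment over all genes and a threshold of 0.05. The SE is the log2 fold change divided by the square root of F. The fit was tested on simulated data first. All 10 genes passed the filter in DN1, DN3, total DN and the comparisons of DN3 with DN1 and DP with DN3; Bst1, Tenm4 and Thsd4 did not in DP, nor Thsd4 in the other comparisons. Named genes were the 10, Lmo2 and the 2 genes most correlated with each of the 10 over 40 libraries (log2(CPM + 1)). For Bst1 only the first correlated gene is reported here. Up to 4 called list genes of smallest adjusted p per stage were also named, as were the paralogs except Clec14a and Thsd7a. Other list genes and the chromosomal neighbours were named after their values were seen. Wild-type DN1 has 1 library, so its fit takes its spread from the other groups. Exact tests of 3 against 3 cannot go below p = 0.1 and were not used. Alternatives were DESeq2 1.42.0, RLE factors, no filter, a fit of all libraries, a replicate block and leaving out each library; fits without libraries that stand apart and with a term for column names ending in N (12 columns, meaning not given) were added after seeing the data. Another 2 count columns, of no listed sample, and the peak lists of 5 ChIP libraries were not used.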

Additional observations from a re-analysis of the deposited data

Results flagged for a closer look

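Bst1 was the 1 gene of the 10 whose transgenic libraries all lay below wild type at some stages and all above it at others. The log2 ratio of mean CPM, transgenic over wild type, was -0.58 in DN3 and -0.54 in total DN, and 6.24 in CD4SP and 5.86 in CD8SP, with 3 libraries a group. In DN3 the gap was narrow, the highest transgenic library holding 68.74 CPM and the lowest wild-type one 70.04 CPM. Of all genes tested, 30.7% lay below wild type without overlap in DN3 and 17.1% in total DN. The difference between stages was not tested.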

How the results depend on the processing

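Of the counts of called genes, 86 alternatives stayed within 1.5 times the reported count and 42 did not. With 1 fit of all libraries, list genes called were 16 in DN3 (33 reported), 6 in DP (0) and 35 in CD4SP (20), and the 10 genes gave 6 from DN3 to DP (3), 8 in splenic CD4 against CD4SP (5) and 1 in splenic CD8 against CD4 (0). DESeq2 called 22 list genes in total DN (14), 7 in DP, 12 in CD8SP (6) and 1 of the genes between splenic groups. The term for column names ending in N gave 3 in total DN, 6 from DN3 to DP and 2 in splenic CD4 against CD4SP, and turned Atp8a2 in CD4SP to -0.28 and Mzb1 between splenic groups to -0.0229. With it, 198 of all 12509 genes were called in total DN (1547 without it) and 2279 of 12073 in CD4SP (3132 without it). Only transgenic libraries, replicates 1 and 3, have such names in total DN and CD4SP, so the suffix and genotype cannot be fully told apart there. With no filter on low counts, 0 passed from DN3 to DP. Leaving out 1 library gave 26 to 36 list genes in DN3, 2 to 24 in total DN, 0 to 10 in DP, 0 to 27 in CD4SP, 0 to 6 in CD8SP and 0 in DN1. It gave 9 to 10 of the genes from DN1 to DN3, 0 to 6 from DN3 to DP, 2 to 9 and 3 to 6 in the splenic CD4 and CD8 comparisons with the thymus, and 0 between splenic groups. The cause was not tested.

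Directions turned only for genes that were not called in the fit reported, or under the terms named here. Without the libraries that stand apart, splenic CD4 against CD4SP turned Tenm4 to 1.005, Atp8a2 to 1.12, Micall2 to 1.46 and Mzb1 to 0.21. Splenic CD8 against CD4 then gave 3 calls, beside 4494 of all 12355 genes, and turned Mzb1 to -0.48. Leaving out 1 library, Mzb1 ran from -0.61 to 0.37 in splenic CD4 against CD4SP and from -0.75 to 1.20 in splenic CD8 against CD8SP, and Tenm4 there from -2.14 to 0.59. Between splenic groups Cd93 ran from -0.91 to 1.59, Pdgfrb from -0.37 to 2.78, Tenm4 from -1.93 to 0.80, Atp8a2 from -0.47 to 0.45 and Mzb1 from -0.99 to 0.93. Replicate numbers were not used to pair samples in the reported fits, and in no comparison did every same-numbered pair correlate above 0.1. In total DN, though, each wild-type library correlated best with the transgenic one of the same number, at r of 0.056, 0.082 and 0.136. The highest single r was 0.49, for replicate 3 of wild-type and transgenic CD8SP. Replicates 1 and 2 of transgenic DN1 and DN3 gave 0.24 and 0.20. The labels do not state a pairing, so whether samples were paired cannot be settled here. With the replicate block the counts of list genes were 33 in DN3, 14 in total DN, 0 in DP, 7 in CD4SP and 7 in CD8SP, and those of the 10 genes 9, 2, 4, 4 and 0 in the order above. The block turned Atp8a2 to -0.0274 and Mzb1 to -0.0411 between splenic groups. No paired analysis was possible for DN1 because its wild-type group has 1 library.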
